A study of Mus musculus with 6 samples.

Results

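The cells described here are the Cd44-high cells of GL261, an established mouse glioma line, grown in differentiation medium with fetal calf serum. They were selected on their own count of Cd44 transcripts: a barcode of a GL261 library with at least 8000 unique molecular identifiers (UMIs, 1 per captured transcript molecule), at least 500 genes and under 10% mitochondrial UMIs was a member when it held at least 5 UMIs of Cd44. There were 809 members among 7975 such GL261 cells, 553 in replicate 1 and 256 in replicate 2, and 22868 such cells in the whole series. They were compared with the 1488 cells of the same libraries that held 0 UMIs of Cd44. The series holds 2 GL261 libraries and 4 libraries of GL261-GSCs, cultures labelled glioblastoma stem cells that were derived from the line and kept in a defined stem cell medium. Nothing in the labels says that replicates were separate cultures. The classes were compared within each library, so p-values set their difference against its variation between libraries. That variation may be technical. In GL261 it was estimated largely from all genes together and was close to counting noise. A small p-value therefore does not show that the 2 libraries gave like values for a gene. All were 5' droplet libraries of dissociated cells that passed through a detergent lysis buffer, and the sample descriptions do not settle if whole cells or nuclei entered the droplets. No genetic change or drug treatment is named for either culture. GL261 is 1 cell line, labelled by its tissue of origin, brain.

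CD44 is a cell surface glycoprotein that binds hyaluronan and other matrix components outside the cell. Its cytoplasmic tail binds ezrin, radixin and moesin, which tie the membrane to cortical actin, and proteases can shed its extracellular part. In glioblastoma CD44 is widely used as a marker of the mesenchymal state, a state otherwise described by genes such as Vim, Lgals3 and Anxa1. Cd44 (ENSMUSG00000005087.17) lies on the minus strand of chromosome 2, from 102811141 to 102901665 in GRCm38, and its longest annotated transcript has 5614 bases.

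The 250 bases before the annotated start are shown for Cd44 and for 2 genes that were higher in the Cd44-high cells and whose windows hold motifs of factors that act downstream of growth signalling. They are Dusp5, a phosphatase of the ERK pathway, and F3, which encodes tissue factor. The sequences are RefSeq's, build GRCm38.p6, each 5′ to 3′ on the gene's own strand. Capitals mark TGANTCA (AP-1), the CArG box of serum response factor and GGAATG (TEAD), searched on both strands. AP-1 was present in 6.75% of 32851 mouse windows of this length, the CArG box in 1.47% and TEAD in 12.6%. The Cd44 window, chr2:102901666-102901915, holds none of these letters. Dusp5 (chr19:53528895-53529144) holds 2 adjacent CArG boxes whose first bases lie 82 and 72 bases before the start. F3 (chr3:121723287-121723536) holds 2 AP-1 matches whose first bases lie 146 and 135 bases before it. Of the 31 windows searched, which belong to 22 genes (Cd44 and genes that were higher), AP-1 was in 2, the CArG box in 1 and TEAD in 5, so that the AP-1 share is near that of all windows. The windows shown were chosen after the matches were seen, and a match is a description of letters only.
Cd44: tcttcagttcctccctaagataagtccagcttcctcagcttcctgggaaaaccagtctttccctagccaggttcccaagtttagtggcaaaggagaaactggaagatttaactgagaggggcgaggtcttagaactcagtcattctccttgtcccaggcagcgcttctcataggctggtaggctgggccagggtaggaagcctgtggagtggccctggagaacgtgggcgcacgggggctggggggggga
Dusp5: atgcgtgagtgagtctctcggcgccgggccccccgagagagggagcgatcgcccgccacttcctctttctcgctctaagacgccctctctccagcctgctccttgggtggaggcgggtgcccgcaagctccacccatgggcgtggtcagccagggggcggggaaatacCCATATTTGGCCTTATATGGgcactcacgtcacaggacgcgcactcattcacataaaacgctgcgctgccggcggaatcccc
F3: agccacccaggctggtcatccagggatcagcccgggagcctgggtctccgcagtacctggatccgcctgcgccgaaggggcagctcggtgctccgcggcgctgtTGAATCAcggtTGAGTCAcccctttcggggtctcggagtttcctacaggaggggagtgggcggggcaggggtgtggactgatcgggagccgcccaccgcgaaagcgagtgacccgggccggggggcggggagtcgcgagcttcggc

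Cd44 was read at a low level in most GL261 cells. Members made up 14.3% of replicate 1 (95% exact binomial interval 13.2 to 15.4%) and 6.24% of replicate 2 (5.52 to 7.03%), intervals that cover counting error only. Cells with 1 to 4 Cd44 UMIs numbered 2728 and 2950, so that the classes are ranges of a count. The highest count in a cell was 16 in replicate 1 and 12 in replicate 2, and 98 and 32 cells held at least 8. Just outside the limit, 384 and 287 cells held exactly 4 Cd44 UMIs. Just inside it, 252 and 135 cells held exactly 5. After thinning each cell to 8000 UMIs, the mean Cd44 level was 2.68 and 2.83 UMIs in members of replicates 1 and 2, against 1.06 and 1.08 in cells with 1 to 4. At exactly 4 UMIs the thinned level was 1.73 and 2.11, and at exactly 5 it was 2.21 and 2.56. The variance of thinned Cd44 over its mean was 1.29 and 1.18, against medians of 1.13 and 1.09 for the 657 and 756 genes whose mean lay within 25% of that of Cd44. It exceeded that of 81.6% and 79.1% of those genes.

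**Figure D1:**
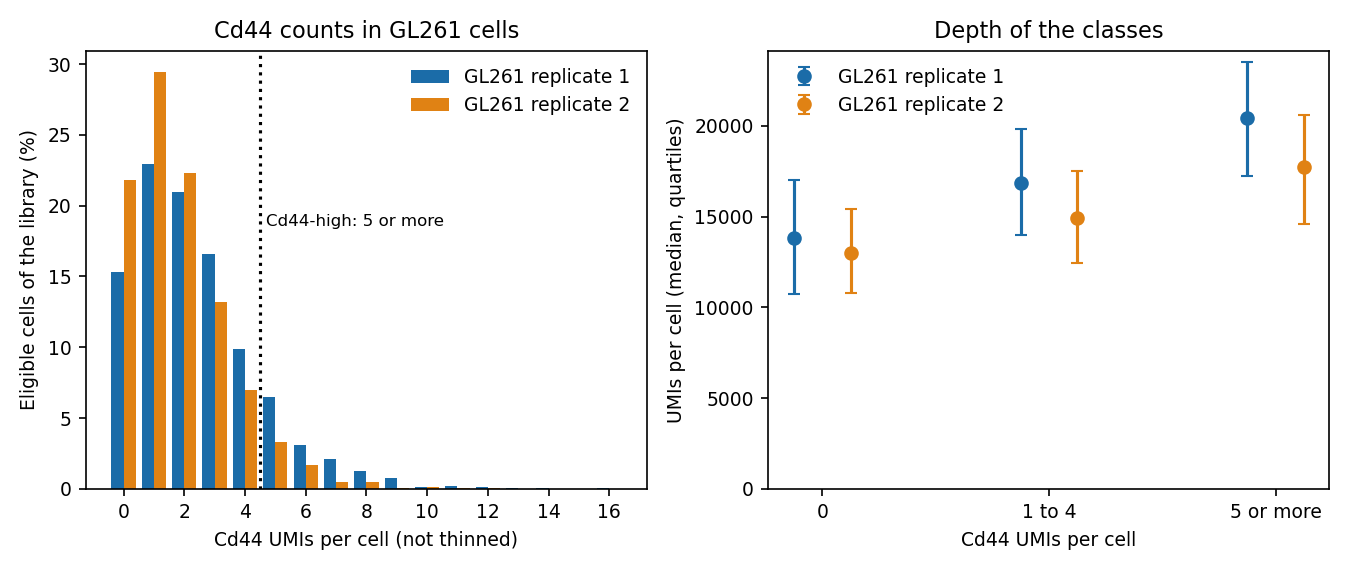
Left, share of eligible GL261 cells (%) by their number of Cd44 UMIs, for each library, with the limit for Cd44-high cells dotted. Right, UMIs per cell in the 3 Cd44 classes (points, medians; bars, quartiles); the median rises from 13838 to 20418 in replicate 1 and from 12990 to 17754 in replicate 2.

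Members were also the more deeply sequenced cells, as a count limit on 1 gene implies. Their median UMI count was 20418 in replicate 1 and 17754 in replicate 2, against 13838 and 12990 in cells with 0 Cd44 UMIs. For this reason every cell was thinned to 8000 UMIs of all genes but Cd44 before any comparison, and levels below are mean UMIs per cell on that scale. Thinning does not remove differences between larger and smaller cells, so 2 further settings are given beside the main results. In the first, Cd44-high and Cd44-zero cells were paired within a library to within 10% of each other's UMI count (346 and 244 pairs). Depth was not fully level there, with medians of 18181.5 and 17351.5 UMIs in high cells against 16603 and 16929.5. In the second, the classes were set on the thinned Cd44 count, at least 3 against 0, which gave 461 and 352 high cells with median UMI counts of 17649 and 14954 against 16494 and 14585. Of those high cells, 283 and 154 were members by the original rule.

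Across the transcriptome, the Cd44-high cells had more transcripts of many genes of G2 and M phase, cortical actin linkage, integrins and ERK feedback, and fewer of several interferon and Ly6 genes, by the counts given for each list below. Of 11321 genes tested, 1846 (16.3%) passed an adjusted p of 0.05 in the edgeR test with library as a block, 872 higher (7.7%) and 974 lower (8.6%). Under library size scaling in place of TMM, 1396 were higher and 612 lower, so that the balance between directions depends on the scaling. Without the library block 11 genes passed, 10 higher and 1 lower. With only 2 libraries, the spread is estimated from 1 residual degree of freedom shared across genes, and the common dispersion of 0.000683 is close to counting noise. DESeq2 gave no adjusted p to 9218 of the 11321 genes and called 217, all of them among the 1846. In depth-matched pairs 169 of 10277 passed, 56 higher and 113 lower. Of the 1814 genes called in the full comparison and tested there, 1791 kept their direction. With classes set after thinning 1517 of 12140 passed, 607 higher and 910 lower. Of the 1517, 1050 were among the 1846, and 1049 of these were in the same direction. List counts under these settings are to be read beside these counts, not beside 7.7% and 8.6%.

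The largest rises with an average log2 CPM of at least 5 spanned log2 fold changes of 0.71 to 1.12, each in the same direction in both libraries. Egr1, an immediate early transcription factor, was at 0.884 and 0.320 UMIs in the Cd44-high cells of replicates 1 and 2 against 0.401 and 0.126 in Cd44-zero cells. Its log2 fold change was 1.12 ± 0.10 (SE, n = 2 libraries; adjusted p = 6.63e-15), although the top 1% of Cd44-high cells held 49.9% of its UMIs in replicate 1 and 24.4% in replicate 2. The level of Egr1 differed more between the libraries than between the classes of a library, and within each library the high cells had more. Errfi1, a feedback inhibitor of the EGF receptor, was at 0.429 and 0.371 in high cells against 0.253 and 0.123 in zero cells (log2 1.0 ± 0.13, adjusted p = 2.16e-08). Its log2 fold changes in replicates 1 and 2 alone were 0.70 and 1.54, a wider gap than the SE conveys. For Errfi1 both high levels lay above both zero levels. How many of all genes tested have groups without overlap was not counted, so this and later such statements describe single genes only.

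Csf1, the growth factor of macrophages, was at 0.485 and 0.492 in Cd44-high cells against 0.291 and 0.224 (log2 0.84 ± 0.11, adjusted p = 1.44e-08). Lamb1, a laminin chain of basement membranes, was at 1.96 and 1.91 against 1.15 and 1.09 (0.72 ± 0.06, adjusted p = 6.82e-16). Pvr, the adhesion receptor also known as the poliovirus receptor, was at 0.485 and 0.426 against 0.273 and 0.261 (0.71 ± 0.11). The groups of these 3 genes, which were chosen for large rises, did not overlap. The long noncoding RNA Lncpint (0.84) and Tmcc3 (0.77) were also among the largest rises. So were the proliferation marker Mki67 (0.72) and the histone genes Hist1h1d (0.86), Hist2h2bb (0.81) and Hist1h1a (0.73). Histone genes have near-identical copies among which reads can be split, so their values are uncertain. In depth-matched pairs Errfi1, Csf1, Pvr, Hist1h1d and Hist2h2bb no longer passed, at log2 0.78, 0.67, 0.67, 0.65 and 0.51. With classes set after thinning Hist2h2bb did not pass (0.22, adjusted p = 0.126).

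**Figure D2:**
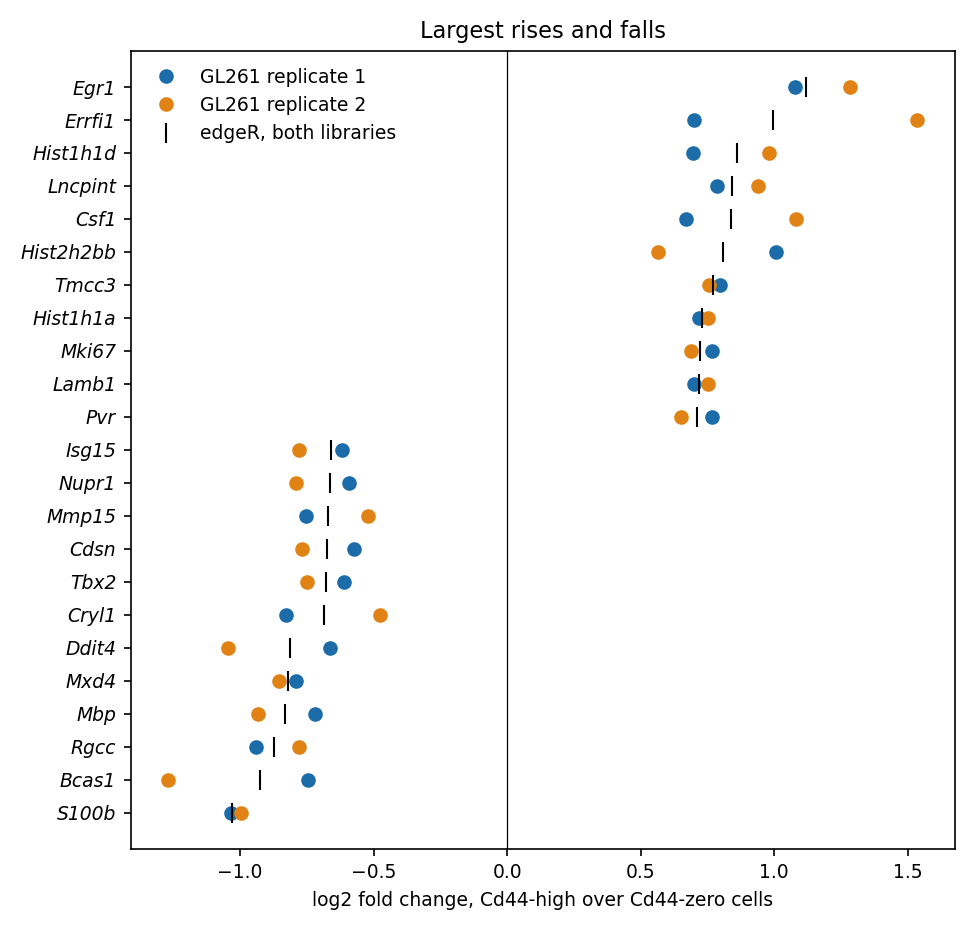
Log2 fold change of Cd44-high over Cd44-zero cells for the largest rises and falls, in GL261 replicate 1, in replicate 2 (points) and in the edgeR fit of both (bars). Both libraries lie on the same side of 0 for each gene, as the choice of genes required, and Errfi1 shows the widest gap, at 0.70 and 1.54.

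The 12 largest falls spanned log2 fold changes of -1.03 to -0.66. S100b, a glial calcium-binding protein, was at 0.280 and 0.227 UMIs in Cd44-high cells against 0.549 and 0.435 in Cd44-zero cells (log2 -1.03 ± 0.11, adjusted p = 7.97e-12). Mbp, myelin basic protein, was at 0.819 and 1.2 against 1.29 and 2.20 (-0.83 ± 0.07, adjusted p = 5.31e-17). Bcas1, a marker of maturing oligodendrocytes, was at 0.222 and 0.145 against 0.357 and 0.336 (-0.92 ± 0.13). S100b, Mbp and Bcas1 were chosen for large falls, and their levels in the high cells lay below both levels in the zero cells. Rgcc, a regulator of the cell cycle, was at 0.758 and 1.02 against 1.39 and 1.68 (-0.87 ± 0.07). Mxd4, an antagonist of MYC, and Ddit4, a stress-induced inhibitor of mTORC1, fell by 0.82 and 0.81 on the log2 scale. The stress gene Nupr1, the metalloprotease Mmp15, the T-box factor Tbx2, Cryl1, Cdsn and the interferon-induced modifier Isg15 made up the rest, at -0.66 to -0.69. In depth-matched pairs Rgcc, Mbp and Isg15 still passed. S100b (adjusted p = 0.0704), Bcas1, Mxd4, Ddit4 and Mmp15 did not pass there and stood closer to 0, at log2 -0.64, -0.59, -0.35, -0.43 and -0.33. Cryl1, Tbx2, Cdsn and Nupr1 did not pass either, at -0.62, -0.69, -0.66 and -0.65.

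Lamb1 and S100b, both named for their difference between the outer classes, are shown over all classes as a description. Lamb1 stood at 1.15, 1.45, 1.69 and 1.96 UMIs in cells of replicate 1 with 0, 1 to 2, 3 to 4 and at least 5 Cd44 UMIs, and at 1.09, 1.33, 1.5 and 1.91 in replicate 2. S100b stood at 0.549, 0.418, 0.334 and 0.280 in replicate 1 and at 0.435, 0.309, 0.279 and 0.227 in replicate 2. Each step of both genes went the same way in both libraries. Classes cut on a sparse count do not show if the members are the upper end of a range or a class apart.

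**Figure D3:**
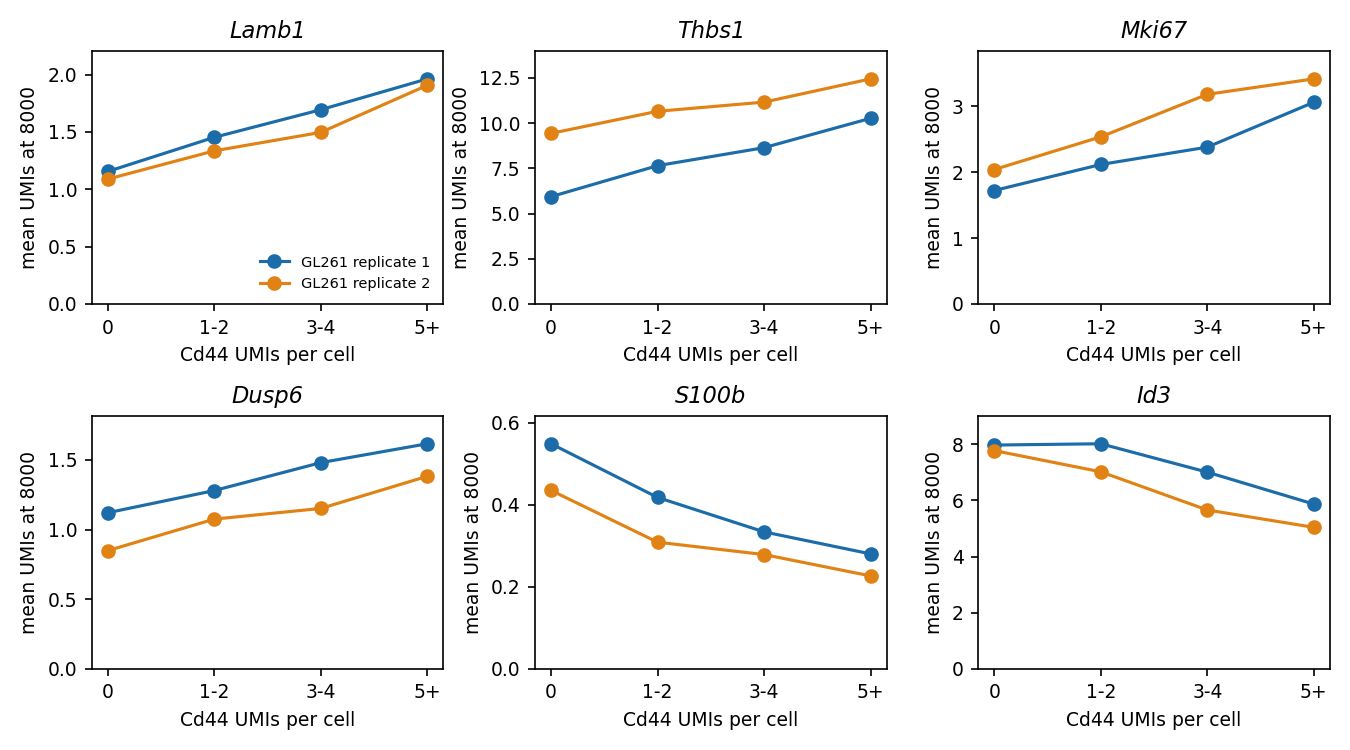
Mean UMIs per cell at 8000 UMIs for Lamb1, Thbs1, Mki67, Dusp6, S100b and Id3 in cells with 0, 1 to 2, 3 to 4 and at least 5 Cd44 UMIs, for each GL261 library. The first 4 genes rise over the classes in both libraries, and S100b falls; Id3 falls by degrees in replicate 2 and above 2 Cd44 UMIs in replicate 1.

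Among the genes linked to CD44, some cortical actin linkers were higher, while ezrin and radixin, which bind its tail, did not pass. Of 11 genes tested in the list of ERM proteins and cortical actin linkers, 6 were higher and 0 lower. Over all genes tested 7.7% were higher and 8.6% lower. The list median was a log2 fold change of 0.29 against -0.00 over all genes tested. Flna, filamin A, which crosslinks actin and anchors membrane receptors, was at 6.48 and 7.39 UMIs in Cd44-high cells against 4.19 and 5.58 in Cd44-zero cells (log2 0.45 ± 0.05, adjusted p = 6.86e-12). Moesin (Msn) was at 2.80 and 2.82 against 2.11 and 2.45 (0.25 ± 0.05, adjusted p = 0.000353; adjusted p = 0.12 with classes set after thinning). Ezrin (Ezr), at 2.11 and 1.93 against 1.89 and 1.63, did not pass (0.13 ± 0.06, adjusted p = 0.126), nor did radixin (Rdx, 0.02 ± 0.07). Actn1, Actn4, Vcl and Nf2 were the other rises in that list, at 0.29 to 0.37. In depth-matched pairs Flna and Actn4 alone of the 11 passed, at a list median of 0.27, beside 56 of 10277 genes higher there. With classes set after thinning Ezr, Flna, Vcl, Actn1 and Actn4 passed, beside 607 of 12140 genes.

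Of 10 tested genes for hyaluronan synthesis, turnover and CD44 ligands, 3 were higher: Hmmr, the intracellular hyaluronan receptor RHAMM that also binds the mitotic spindle, Vcan and Fn1. Over all genes 7.7% were higher. Fn1, fibronectin, was at 5.20 and 5.30 UMIs against 3.77 and 4.24 (log2 0.33 ± 0.05). Has2, a hyaluronan synthase, was at 0.420 and 0.559 against 0.392 and 0.574 (-0.04 ± 0.09, adjusted p = 0.863), and its groups overlapped. The ligands Spp1 (osteopontin) and Tnc (tenascin C) were too low in GL261 to test, with 7 and 4 Spp1 UMIs in the high cells and 4 and 81 in the zero cells. Of the 7 tested proteases and inhibitors of CD44 shedding only Timp1, an inhibitor, was higher (0.35 ± 0.05; adjusted p = 0.0814 in depth-matched pairs). Of the hyaluronan list Fn1 alone passed in those pairs.

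Integrins, the other large family of matrix receptors, were higher as well. Of 8 tested, 5 were higher and 0 lower, beside 7.7% and 8.6% of all genes, with a median of 0.34. The median transcript length of these 8 was 4621.5 bases. Among genes above 4598 bases, 460 of 2831 were higher, with a median log2 fold change of 0.12. The shared beta chain Itgb1 was at 14.6 and 12.4 UMIs in Cd44-high cells against 10.7 and 10.2 in Cd44-zero cells (log2 0.30 ± 0.05, adjusted p = 5.11e-07). Its alpha partners Itga3 (0.81 ± 0.16), Itgav (0.51 ± 0.08), Itga4 (0.40 ± 0.08) and Itga1 (0.34 ± 0.10) were higher too, whereas Itga6 stood at -0.02 ± 0.06. In depth-matched pairs Itgb1 alone of the list passed (0.27, adjusted p = 0.0189), with Itgav at an adjusted p of 0.0501. Of all genes 56 of 10277 were higher there. In the matrix list 3 genes were higher (Thbs1, Col1a1 and Fbn1) and 2 lower (P4ha3 and Sparc) of 10, and in depth-matched pairs Thbs1 alone passed. Thbs1, thrombospondin, was at 10.3 and 12.4 against 5.93 and 9.43 (0.53 ± 0.05, adjusted p = 9.79e-14). Of the contractile genes, non-muscle myosin Myh9 was higher (0.48 ± 0.04) and Acta2, Myl9 and Tpm1 were lower, of which Myh9 and Acta2 passed in depth-matched pairs. Acta2 fell in replicate 2 (1.35 against 2.45) far more than in replicate 1 (1.75 against 1.83), and its call was lost with a robust fit (adjusted p = 0.578).

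Genes that ERK signalling induces formed the list with the highest median. Of 13 tested, 8 were higher and 0 lower, beside 7.7% and 8.6% of all genes, with a median log2 fold change of 0.46. The feedback phosphatase Dusp6 was at 1.62 and 1.38 UMIs in Cd44-high cells against 1.12 and 0.849 in Cd44-zero cells (0.53 ± 0.07, adjusted p = 1.28e-09). Phlda1 was at 7.81 and 6.89 against 6.0 and 5.30 (0.31 ± 0.05, adjusted p = 1.77e-07). Neither gene had overlapping groups. The feedback inhibitor Spry2 (0.97 ± 0.23), the phosphatase Dusp5 (0.77 ± 0.18), the ETS factor Etv5 (0.72 ± 0.15), Epha2 (0.68 ± 0.21), Spred1 (0.23 ± 0.08) and cyclin D1 (Ccnd1, 0.18 ± 0.05) made up the 8. Dusp4, Etv4 and Spry4 had positive values that did not pass, and Spry1 and Myc stood at -0.06 each. With classes set after thinning 6 were higher, with a median of 0.24, beside 607 of 12140 genes. In depth-matched pairs Dusp6 alone passed (0.44, adjusted p = 0.0474), with a median of 0.39, beside 56 of 10277 genes higher there.

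The AP-1 and immediate early genes were split, and their count depended on how the classes were set. Of 11 tested, Egr1, Fosl1 (FRA-1) and Fosl2 were higher and Ier3 and Dusp1 lower, with a median of -0.00. Over all genes 7.7% were higher and 8.6% lower. Fos and Jun stood at -0.16 ± 0.15 and 0.06 ± 0.06. With classes set after thinning 5 were higher (Fosl1, Fosl2, Jun, Atf3 and Egr1) and Dusp1 lower, with a median of 0.16, and in cells with at least 8 Cd44 UMIs 5 were higher and 2 lower, with a median of 0.32. In depth-matched pairs Egr1 alone passed. Of 12 tested targets and members of the YAP/TAZ pathway, 6 were higher and 0 lower (median 0.23). F3 was at 5.10 and 4.46 UMIs against 2.90 and 3.04 (0.63 ± 0.05, adjusted p = 8.93e-17), Cyr61 at 10.4 and 9.59 against 7.34 and 7.75 (0.35 ± 0.05), and Ctgf did not pass (0.11 ± 0.07). In depth-matched pairs 3 of the 12 passed (Cyr61, Axl and F3), beside 56 of 10277 genes higher there. With classes set after thinning 4 did, beside 607 of 12140 genes. Of 9 tested genes of NF-kB and STAT3 signalling, Csf1 and Tnfaip3 (1.19 ± 0.20) were higher, and in depth-matched pairs neither passed (Csf1 at 0.67, adjusted p = 0.109; Tnfaip3 at 0.73, adjusted p = 0.141).

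Cell cycle genes of G2 and M phase were higher in Cd44-high cells. Few of these calls were left at matched depth, where few calls were left over all genes too. Of 22 tested, 18 were higher and 0 lower, beside 7.7% and 8.6% of all genes, with a median of 0.33. Mki67 was at 3.06 and 3.41 UMIs in Cd44-high cells against 1.72 and 2.04 in Cd44-zero cells (0.72 ± 0.05, adjusted p = 8.44e-19). Top2a, the topoisomerase of dividing cells, was at 3.87 and 4.31 against 2.79 and 2.90 (0.45 ± 0.05, adjusted p = 3.3e-11). Neither had overlapping groups. The summed level of the 22 genes was 34.6 and 37.6 UMIs in high cells against 26.0 and 28.7 in zero cells. Cells above the library's upper quartile of that sum made up 32.7% and 27.7% of the high cells against 21.4% and 20.6% of the zero cells. Over all genes 56 of 10277 were higher in depth-matched pairs. Of the 22 there 1 passed, Mki67 (0.53, adjusted p = 0.0354), with a median of 0.11. With classes set after thinning 8 were higher and 1 lower, with a median of 0.08. Of 18 genes of G1 and S phase, 3 were higher (Mcm2, Rrm1 and Rrm2) and 0 lower, with a median of 0.09. In depth-matched pairs their median was -0.12 and edgeR called 0 of them. Among cells low in the cycle genes, 671 genes were called, 617 of them among the 1846. The G2/M list was not levelled there, with 4 higher (Mki67, Cenpa, Ube2c and Birc5), 0 lower and a median of 0.21, beside the ERK list at 3 higher and 0 lower and the integrins at 3 higher and 0 lower.

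The mesenchymal glioma list was split. Of 25 tested, 6 were higher and 9 lower, against 7.7% and 8.6% of all genes, with a median of -0.10. Under library size scaling 7 were higher and 5 lower, with a median of -0.03 against 0.06 over all genes, so that the balance turns with the scaling. In depth-matched pairs 1 of 24 was higher and 6 lower, against 56 and 113 of 10277 genes. With classes set after thinning 5 of 25 were higher and 13 lower, against 607 and 910 of 12140 genes. Emp1, Runx1, Fosl1, Fosl2 and Plaur were among the 6, and Plaur, the urokinase receptor, stood at 2.85 and 2.86 UMIs against 2.12 and 1.95 (0.42 ± 0.05). Vim, the intermediate filament vimentin, was at 104 and 105 UMIs in Cd44-high cells against 108 and 115 in Cd44-zero cells (-0.16 ± 0.05, adjusted p = 0.0131). The galectin Lgals3 was at 8.64 and 8.10 against 10.1 and 9.98 (-0.33 ± 0.05, adjusted p = 5.37e-08), and Mt1, a metallothionein, at 9.79 and 9.82 against 12.7 and 12.5 (-0.43 ± 0.05). Annexin A2 (Anxa2) and galectin 1 (Lgals1) stood at -0.16 each, but with offsets for transcript length they stood at -0.03 and 0.02. The calls of Vim, Lgals1 and Anxa2 were lost under library size scaling. Anxa1 did not pass (-0.04 ± 0.05).

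Among neural progenitor genes 1 passed in each direction. Nes, the intermediate filament nestin, was at 10.4 and 9.77 UMIs in Cd44-high cells against 7.52 and 8.41 in Cd44-zero cells (0.28 ± 0.05, adjusted p = 5.52e-06; adjusted p = 0.18 in depth-matched pairs). Id3, an inhibitor of differentiation factors, was at 5.87 and 5.04 against 7.97 and 7.77 (-0.59 ± 0.05, adjusted p = 8.93e-17), and its groups did not overlap. Sox2 did not pass (-0.23 ± 0.09, adjusted p = 0.0706). Of the 7 tested, Nes was the only one higher and Id3 the only one lower, beside 7.7% and 8.6% of all genes. With 1 call each way, the list as a whole is not read as changed.

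Interferon-induced genes were lower. Of 11 tested, 6 were lower and 0 higher, beside 8.6% and 7.7% of all genes, with a median of -0.32. Isg15 was at 1.74 UMIs in Cd44-high cells against 2.55 in Cd44-zero cells of replicate 1, and at 0.469 against 0.775 in replicate 2 (-0.66 ± 0.06, adjusted p = 3.08e-13). The libraries differed more than the classes, and Isg15 was lower in the high cells of each. Bst2 was at 6.2 and 3.54 against 7.12 and 3.91 (-0.24 ± 0.05), and Ifit1, Ifit3, Oasl2 and Rsad2 were the other falls. In depth-matched pairs Isg15 alone passed (-0.56, adjusted p = 0.0228), with a median of -0.24, beside 113 of 10277 genes lower there. Of 9 genes of MHC class I presentation, the immunoproteasome subunits Psmb8 and Psmb9 were lower. Neither passed in depth-matched pairs (Psmb8 at -0.41, Psmb9 at -0.61), and with classes set after thinning Psmb8 alone did. All 3 tested Ly6 genes were lower, among them Ly6a (Sca-1) at 3.22 and 4.62 UMIs against 4.24 and 5.58 (-0.40 ± 0.05, adjusted p = 1.19e-09). Ly6c1 stood at -0.54 ± 0.08 and Ly6e at -0.19 ± 0.05, and in depth-matched pairs none of the 3 passed in edgeR (Ly6a at -0.27, adjusted p = 0.163).

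Of the lists for stress and metabolism, 1 of 10 hypoxia genes was higher (Slc2a1, 0.36 ± 0.10). Of 9 p53 targets Phlda3 was lower (-0.22 ± 0.06), and of 8 ATF4 targets Asns (-0.19 ± 0.06). Such shares are near those over all genes, 7.7% higher and 8.6% lower. None of Slc2a1 (0.29), Phlda3 (-0.06) and Asns (-0.30) passed in edgeR in depth-matched pairs. Slc2a1 was also lost with classes set after thinning, Phlda3 and Asns with length offsets, and Asns under library size scaling. Phlda3 was lost as well without the cells above the 95th percentile of UMIs. The medians of the hypoxia, p53 and ATF4 lists were -0.04, -0.15 and -0.13. Malat1, a nuclear noncoding RNA, stood at 31.0 and 33.1 UMIs against 32.0 and 30.3 (-0.02 ± 0.05, adjusted p = 0.79).

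**Figure D4:**
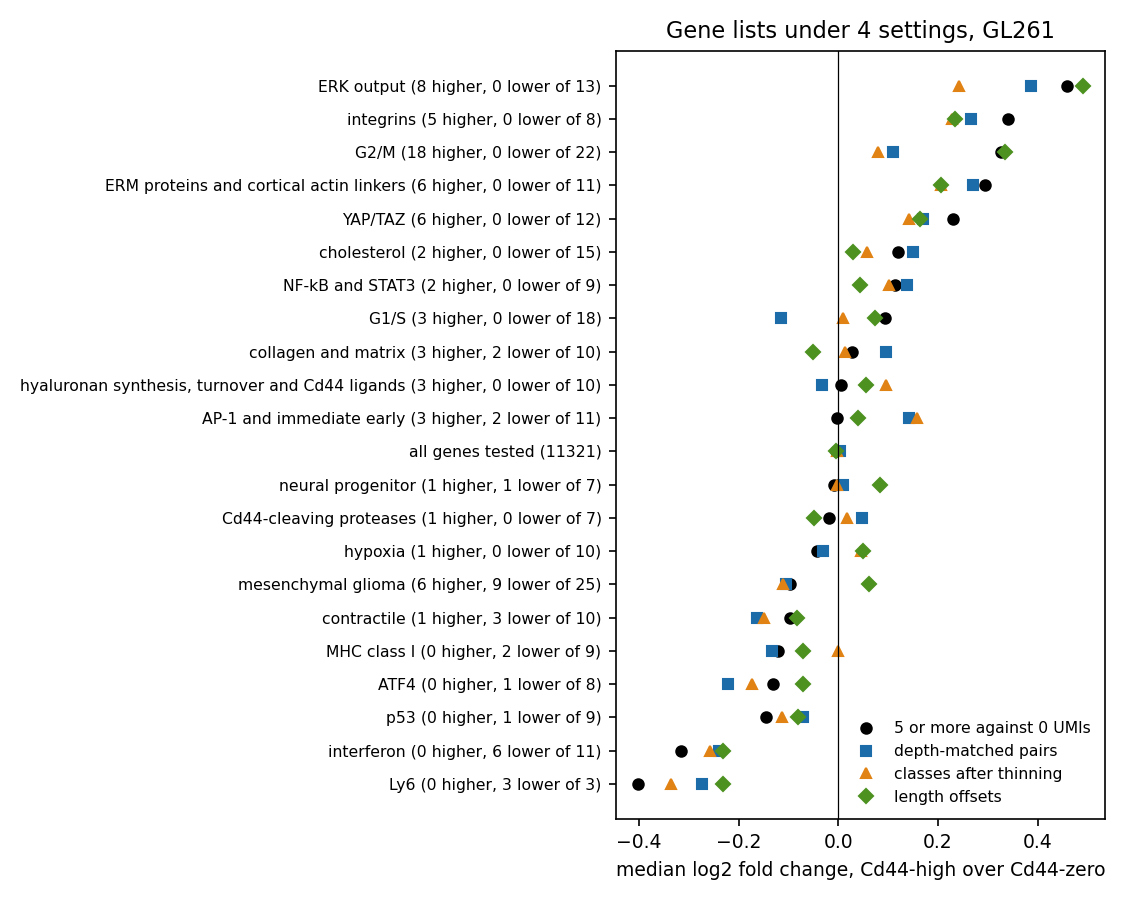
Median log2 fold change of Cd44-high over Cd44-zero GL261 cells for each gene list, with the edgeR calls of the comparison of at least 5 against 0 UMIs in the labels, under 4 settings (points). The ERK, integrin and cortical actin lists lie above 0 and the interferon and Ly6 lists below 0 under all 4, while the G2/M median falls from 0.33 to 0.11 in depth-matched pairs and to 0.08 with classes set after thinning.

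Transcript length moved with these differences. Over the genes tested, the median log2 fold change was -0.15 among those whose longest annotated transcript has up to 1899 bases, -0.03 up to 3053 bases, 0.05 up to 4598 bases and 0.12 above that, in 4 classes of like size. Calls in the shortest class were 50 higher and 617 lower, and in the longest 460 higher and 63 lower. Depth-matched pairs gave -0.15 and 0.15 at the ends and classes set after thinning -0.13 and 0.11. Cd44 itself, at 5614 bases, belongs to the longest class. Ribosomal protein genes, which have short transcripts, made up 13.9% and 13.5% of UMIs in high cells against 15.6% and 14.8% in zero cells. The number of genes seen at 8000 UMIs was 3210 and 3209 in the high cells against 3110 and 3119. With offsets that level the length trend, 1051 genes passed, 849 of them among the 1846. The ERK list then stood at 7 higher and 0 lower, G2/M at 17 and 0, integrins at 3 and 0, cortical actin linkers at 5 and 0, and interferon genes at 0 and 5. The mesenchymal list then stood at 6 higher and 4 lower, with a median of 0.06 in place of -0.10. The part of length, cell size or reverse transcription in any of these differences was not tested.

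The genes whose thinned counts ran most closely with thinned Cd44 over the cells included the scaffold protein Ahnak, the laminin chain Lamb1, the splicing factor Prpf8 and the translation factor Eif4g1. Among 5764 genes with a mean of at least 0.2 UMIs, high Spearman coefficients, averaged over the 2 libraries (3875 and 4100 cells), belonged to Ahnak (0.12), Lamb1 (0.12), Kpnb1 (0.11), Actn4 (0.11), Akap12 (0.10), Cdh2 (0.10), Prpf8 (0.10), Eif4g1 (0.10) and Hmga2 (0.09). The lowest were Ppia (-0.13), Rpl41 (-0.10) and Rpl19 (-0.10). Cells of a library share its depth and free RNA, and coefficients this weak in sparse counts are given as a description only. The coefficient of thinned Cd44 with a cell's UMI count was 0.07 and 0.02.

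Markers of other cell types were low in the members. Ptprc (CD45) was at 0 UMIs in the Cd44-high and Cd44-zero cells of both GL261 libraries. The 7 macrophage and microglia markers summed to 0.224 and 0.172 UMIs in high cells against 0.194 and 0.176 in zero cells, with Aif1, Cx3cr1 and Itgam at or near 0. The astrocyte markers summed to at most 0.0783 in any class, and those of T cells, B cells, endothelial cells, neurons, fibroblasts and pericytes to at most 0.0391 in the high and zero cells. The oligodendrocyte markers summed to 1.08 and 1.36 against 1.54 and 2.49, most of it Mbp, with Mog at 0.0101 or less. Mitochondrial UMIs were 1.13% and 1.14% in high cells against 1.10% and 0.987%. No doublet caller was run, and without the cells above the 95th percentile of UMIs 1437 genes were called.

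In GL261-GSCs the same rule found fewer cells, 111, 33, 26 and 7 in replicates 1 to 4, or 3.08%, 0.712%, 0.534% and 0.392%. The thinned level of Cd44 over all eligible cells was 1.13 and 0.955 UMIs in GL261 and 0.607, 0.489, 0.406 and 0.393 in GL261-GSCs. No GL261-GSCs library reached the lower GL261 library, although the share by the rule also follows depth, with median UMI counts of 16880 and 14656 in GL261 and 11036 to 16655 in GL261-GSCs. Set on the thinned count, at least 3 Cd44 UMIs, the share was 11.9% and 8.59% in GL261 and 1.40 to 3.64% in GL261-GSCs. Barcodes with 100 to 1000 UMIs served as a stand-in for free RNA, and what else they hold was not examined. Their Cd44 level was 114 and 65.3 CPM in GL261 and 46.7 to 60.0 in GL261-GSCs, against 142 and 119, and 50.2 to 74.0, in the cells. In GL261-GSCs replicates 3 and 4 the Cd44 level of the cells was at or below that of these barcodes. How much of the cells' Cd44 was free RNA was not tested.

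Comparing Cd44-high with Cd44-zero cells in GL261-GSCs, without replicate 4 because it had under 20 high cells, 944 of 11955 genes passed (7.9%), 441 higher (3.69%) and 503 lower (4.21%). Under library size scaling 794 were higher and 218 lower, with the median over all genes at 0.13 in place of -0.01, so that the balance of directions depends on the scaling here too. Without replicate 2 the count was 150, 114 higher and 36 lower, without replicate 1 it was 800, 278 and 522, and without replicate 3 it was 526, 300 and 226. Several differences ran the same way as in GL261. Mki67 was at 2.58, 2.33 and 4.77 UMIs in high cells of replicates 1 to 3 against 1.40, 1.70 and 2.10 in zero cells (log2 0.70 ± 0.14), and Errfi1 (1.46 ± 0.29), Lamb1 (1.12 ± 0.24) and Pvr (1.09 ± 0.25) were higher too. S100b (-0.99 ± 0.20), Rgcc (-1.11 ± 0.16) and Isg15 (-0.95 ± 0.23) were lower. The cycle lists did not run as in GL261. Of 22 G2/M genes 3 were higher and 0 lower (median 0.16), and of 18 G1/S genes 0 were higher and 7 lower (median -0.45). Transcript length moved with the differences here too, with medians of -0.28 up to 1899 bases and 0.21 above 4598 bases. With length offsets neither Mki67 nor Isg15 passed in GL261-GSCs. High cells of GL261-GSCs also carried more mitochondrial UMIs, 1.70%, 1.85% and 2.33% against 1.13%, 1.15% and 1.30%. Malat1 made up 0.358%, 0.564% and 0.616% of their UMIs against 0.252%, 0.285% and 0.348%, and ribosomal protein genes 12.9%, 12.1% and 12.3% against 14.9%, 15.3% and 17.5%. The part of these shares, or of transcript length, in these results was not tested.

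The difference between the cultures was itself tested, and 108 of 11542 genes (0.936%) passed, 23 with a larger and 85 with a smaller value in GL261. Larger and smaller refer to the signed log2 value, so that a deeper fall in GL261 also counts as smaller. Of 25 mesenchymal genes tested, 0 were larger in GL261 and 6 smaller (Anxa1, Lgals3, Emp1, Cebpb and Plaur among them), with a median of -0.26 against 0.03 over all genes. A robust fit called 4 of the 25, without Anxa1 and Cebpb. Lgals3 was at 0.793, 0.576 and 5.54 UMIs in Cd44-high cells of GL261-GSCs replicates 1 to 3 against 0.337, 0.0964 and 1.59 in Cd44-zero cells, a rise of 1.51 ± 0.16 where GL261 showed a fall (difference -1.81 ± 0.20, adjusted p = 2.15e-08). Hmox1, the stress-induced heme oxygenase, was at 0.577, 1.55 and 0.538 against 0.195, 0.241 and 0.0848 in GL261-GSCs, and at 0.425 and 0.340 against 0.682 and 0.369 in GL261 (difference -2.53 ± 0.23, adjusted p = 1.35e-10). Gpnmb, a glycoprotein of lysosomes and the cell surface, was at 5.93, 21.8 and 22.0 against 3.42, 4.53 and 4.36 in GL261-GSCs, and at 3.22 and 2.15 against 3.30 and 2.26 in GL261 (difference -1.75 ± 0.21). The rises of Hmox1, Lgals3 and Gpnmb in GL261-GSCs were present in each of the 3 libraries. They rest on 111, 33 and 26 high cells, and the share of UMIs held by few cells was not counted there. The macrophage and lysosome gene Cd68 was also higher in high cells of GL261-GSCs (1.93 ± 0.31), at 0.171, 0.212 and 1.04 UMIs against 0.0813, 0.0487 and 0.127. Of the 7 macrophage and microglia markers, only Cd68 was tested there, and Ptprc was not tested for want of UMIs. In the high cells these markers summed to 0.180, 0.212 and 1.04 UMIs, with 5, 6 and 6 of them at 0. In the more numerous zero cells 3, 3 and 4 of them were at 0.

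Ezr showed a rise in GL261-GSCs, from 1.55, 1.07 and 1.86 UMIs to 2.76, 2.55 and 4.81 (0.96 ± 0.14), that was larger than in GL261 (difference -0.81 ± 0.15, adjusted p = 0.00135). The ERK list gave calls in both directions in GL261-GSCs. There 1 of its 12 tested genes was higher (Dusp4) and 2 lower (Spry1 and Phlda1), beside 3.69% and 4.21% of all genes. The list median was -0.03. Under library size scaling 2 were higher (Dusp4 and Spred1) and 0 lower, with a median of 0.12 against 0.13 over all genes. The difference between the cultures passed for Phlda1 (0.76 ± 0.16, adjusted p = 0.00643) and Ccnd1 (0.62 ± 0.16, adjusted p = 0.0407). The count of 108 fell to 10 without GL261 replicate 1 and to 23 without replicate 2, and rose to 378, with 215 larger and 163 smaller in GL261, without GL261-GSCs replicate 1. The count and its balance of directions thus rest on few libraries.

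**Figure D5:**
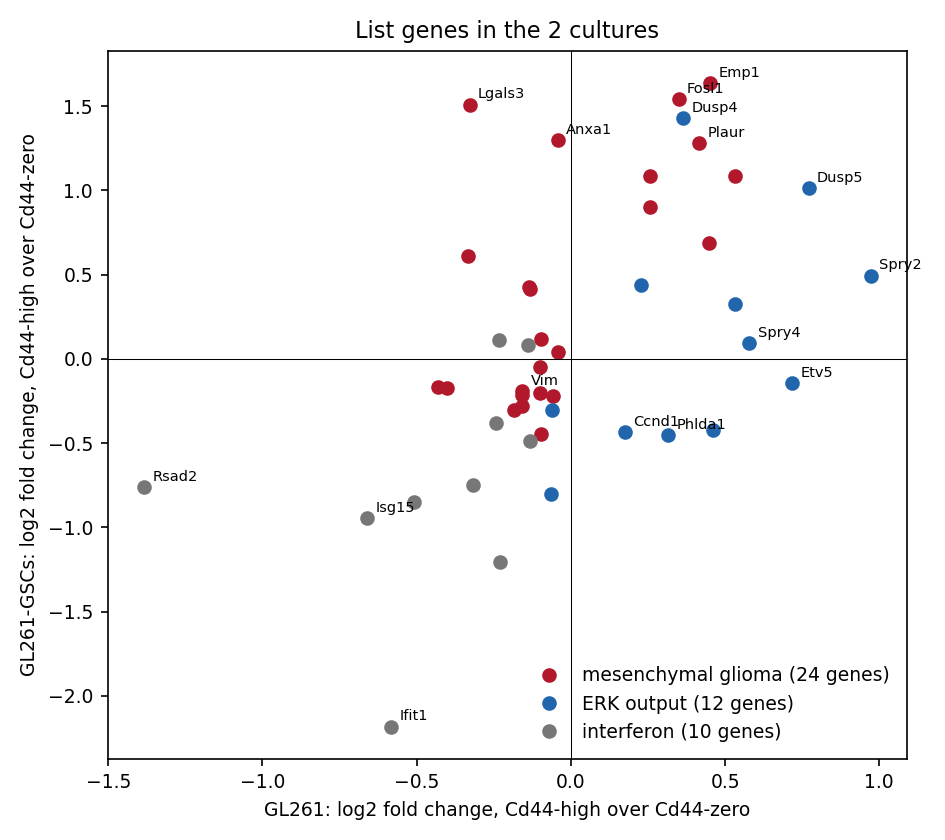
Log2 fold change of Cd44-high over Cd44-zero cells in GL261 (x axis) and in GL261-GSCs (y axis) for genes of the mesenchymal glioma, ERK output and interferon lists (points). Emp1 lies above 0 in both, Lgals3 lies at -0.33 in GL261 and 1.51 in GL261-GSCs, and most interferon genes lie below 0 in both.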

How the data were processed

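The deposited matrices hold unnormalized UMI counts for every barcode, and the file headers name Cell Ranger 4. The submitters' processing notes name Cell Ranger and mm10. The annotation release, and whether intronic reads were counted, were not stated in what was used here. Of 54446 gene identifiers, 54409 (99.9%) matched GENCODE M21 (GRCm38), which gave coordinates and lengths.

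Total UMIs per library were 80899005 to 121309232. The UMI limit left 1785 to 4867 cells per library, of which the GL261 libraries share 23 barcodes (1 among members). Cells were thinned without replacement with a fixed seed, summed per library and Cd44 class, and tested with edgeR 4.0.16 (quasi-likelihood, TMM, filterByExpr, Benjamini-Hochberg, 2-sided) in R 4.3.3, with library as a block, since both classes of a library come from the same droplet run. Cd44 was left out of the test. SE is the absolute log2 fold change over the square root of F, so it is not the spread of the single-library values. limma 3.58.1, DESeq2 1.42.0 and 1 setting at a time served as alternatives. Classes under 20 cells were left out. Tested on simulated data for GL261 (11321 genes), edgeR recovered 90 of 100 genes changed by 0.5 and 100 of 100 changed by 1 on the log2 scale, with 12 false calls among 202. DESeq2 recovered 30 and 95, with 0 false calls among 125. The simulation used 1 profile for all libraries and 1 dispersion for all genes, and changed only genes with log2 CPM of at least 5. It held no library differences, no length trend and no genes carried by few cells. These rates are therefore not the error rates of the calls in the real data.

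Named genes are the 12 largest rises and falls that passed, with log2 CPM of at least 5 and the same direction in both libraries, leaving out predicted and mitochondrial genes. To these were added a list of 23 fixed genes, the smallest p of each list, and the 10 genes most like Cd44. Members, lists and tests were chosen with earlier results of these data known. Hmox1, Gpnmb and the other list genes with values were named after their values were seen. Results for a few genes within these rules and lists are not reported here.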

Additional observations from a re-analysis of the deposited data

Results flagged for a closer look

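Among the 4 GL261-GSCs libraries, replicate 1 stood apart in its share of Cd44-high cells (3.08% against 0.392 to 0.712%). Its gap to the nearest library was 0.881 of the whole range, past the 95% limit of Dixon's test for 4 samples, which chance passes in about 1 group in 20. It was also the deepest of the 4, and on the thinned count, at least 3 Cd44 UMIs, the shares were 3.64%, 2.31%, 1.60% and 1.40% and the gap was within that limit.

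The following differed between the cultures by the test of the difference itself, given as the log2 difference of Cd44-high over Cd44-zero cells in GL261 minus that in GL261-GSCs. These values are signed, so that a fall in GL261, as for Bcas1, also counts as smaller. Smaller in GL261 were Hmox1 (-2.53), Nupr1 (-2.34), Col5a3 (-1.88), Lgals3 (-1.81), Gpnmb (-1.75), Eps8 (-1.25), Anxa1 (-1.24), Emp1 (-1.14), Bcas1 (-1.01), Itga6 (-0.87), Plaur (-0.81), Ezr (-0.81) and Cebpb (-0.79). Larger in GL261 were Tmcc3 (1.13), Hist1h1d (0.93), Phlda1 (0.76), Rrm1 (0.69) and Ccnd1 (0.62). Spp1 also passed (-3.79), but it was too low to test in GL261 alone, with 7 and 4 UMIs in the Cd44-high cells and 4 and 81 in the Cd44-zero cells, and a robust fit did not call it.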

How the results depend on the processing

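For GL261, against 1846 genes called, the count was 217 with DESeq2, 3077 unthinned, 169 in depth-matched pairs, 580 for at least 8 UMIs against 0, 617 for at least 5 against 1 to 4, 671 in cells low in cycle genes, and, chosen after seeing the data, 139 for cells with a UMI and 1051 with length offsets. It stayed within 1.5 times under the other settings run. With no replicate block it was 11 (1948 at an unadjusted p under 0.05), so calls rest on the paired classes of a library. Leaving out a GL261 library leaves no test, and the largest rises and falls were chosen to have the same direction in both libraries. Of the 63 named genes 51 were called, and depth-matched pairs ended 28 of these calls and no replicate block 45, none with a change of direction. Counting cells with a UMI ended 30, Egr1 among them (adjusted p = 0.118), and turned 4. Values of the other sign were Lgals1 0.001, Lgals3 0.011, Anxa2 0.001 and Asns 0.051 for cells with a UMI, and Lgals1 0.019 with length offsets. For GL261-GSCs, against 944, the count was 442 with DESeq2, 0 with no replicate block (1347 at an unadjusted p under 0.05), 1825 unthinned, 605 in depth-matched pairs, 2672 with classes after thinning, 385 with length offsets and 150 to 800 without 1 library, lowest without replicate 2. Against 108 genes that differed between the cultures, the count was 52 in depth-matched pairs (36 of them among the 108) and 10 to 378 without 1 library (88 of the 378 among the 108). Differences of high minus zero cells, averaged over both libraries, moved as follows from the full comparison to depth-matched pairs and to classes after thinning: median UMIs 5672, 1000 and 762; genes at 8000 UMIs 94.8, 83.5 and 75.5; mitochondrial percent 0.0947, 0.259 and 0.222; G2/M sum 8.71, 3.35 and 3.60 (6.97 without the top cells); G1/S sum 1.68, -0.0980 and 0.548. With 256 to 553 high cells a library at 8000 UMIs each, genes such as Spp1 and Tnc could not be tested in GL261 alone.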
